A study of Mus musculus with 6 samples.

Results

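P19 cells of the early glial stage (Day 10) were compared with P19 cells of the neuronal stage (Day 7) across all genes of an exon array. The comparison used 4 of the 6 arrays of the series, 2 biological duplicates on each day, and the other 2 arrays were of undifferentiated cells (Day 0). P19 is a mouse embryonal carcinoma line. The cells of Day 10 and of Day 7 both came from aggregation cultures that had been given 1 µM retinoic acid (RA) for 4 days and had then been cultured further, while the cells of Day 0 had received none. Each stage is a whole culture of 1 cell line, so that its RNA is the sum over all the cells in the dish, and a lower signal from fewer cells of a type cannot be told apart from less RNA per cell. Of the 16263 genes with a level, 11384 were bright enough to be tested.

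P19 cells resemble the cells of the early embryo. When they are aggregated with RA they leave the cell cycle over several days and form neurons, and astrocytes appear later, from precursors that keep dividing after the first neurons have formed. Astrocytes take up transmitter, supply lipid and energy substrates to neurons, and are recognized by the intermediate filament protein GFAP. Radial glia, the stem cells of the developing nervous system, share many of their genes.

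The level of a gene was the median of log2(intensity + 16) over its probesets, and each array was then centred on the median of its gene levels. A level is therefore a log2 distance from the median gene of that array, and a difference of 1 between levels is a fold of 2. The offset of 16 understates changes of dim genes, since 8.9% to 11.9% of the intensities on an array were smaller than it. Levels of different genes are not compared with each other here, since their probes differ. Differences between days were tested by limma across all tested genes, fitted to all 6 arrays, with Benjamini-Hochberg adjustment. Calls needed a change of 2-fold or more together with an adjusted p below 0.05.

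The Day 10 duplicates differed from each other more than the Day 7 duplicates did. The median probeset intensity was 156 on the array of Day 10 replicate 1 and 210 on that of replicate 2, against 216 and 215 on the Day 7 arrays. Before centring, the median change over all tested genes was -0.25 (log2). After centring, 641 genes were more than 2-fold apart between the Day 10 duplicates, against 105 between the Day 7 duplicates, and 474 were so on Day 0. Across genes, the correlation of levels was 0.930 between the Day 10 duplicates and 0.973 between the Day 7 duplicates. Day 10 replicate 2 also had higher levels of genes of undifferentiated cells than replicate 1. Over 13 genes of the pluripotency and embryonal carcinoma list, the median level was 0.47 on Day 10 replicate 1 and 2.23 on Day 10 replicate 2, against -0.49 and 0.45 on the Day 7 arrays. Of these 13 genes, 12 were higher on replicate 2 than on replicate 1 on Day 10, and 12 were so on Day 7. The median difference between the replicates was 1.55 on Day 10 and 1.05 on Day 7. The neuronal cytoskeleton list ran the other way on Day 10, with 5 of 31 genes higher on replicate 2. On Day 7, 27 of the 31 were higher on replicate 2. The part of these differences in the results below was not tested. Counts of calls are given with and without each Day 10 array for some lists only. They also changed in lists where this is not given, among them synapse, oligodendrocyte lineage, Hox, smooth muscle and splicing. A count given alone therefore need not hold when a Day 10 array is left out.

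**Figure D1:**
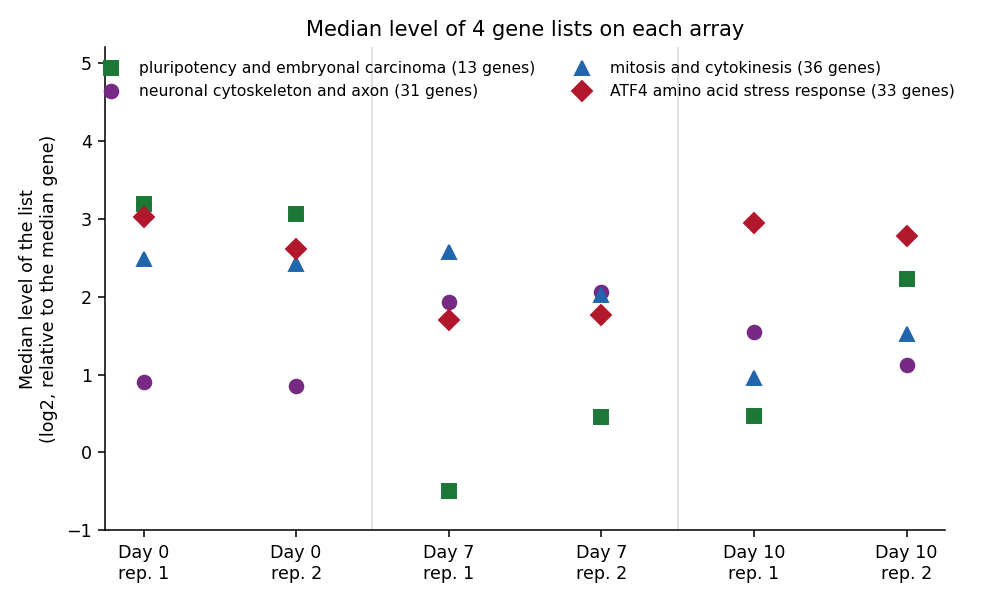
Median level (log2, relative to the median gene of the array) of 4 gene lists on each of the 6 arrays, with 1 symbol per list and array, in the order Day 0, Day 7, Day 10. The pluripotency list had medians of 0.47 and 2.23 on the Day 10 arrays, the mitosis list was lower on both Day 10 arrays than on both Day 7 arrays, and the ATF4 list was higher.

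Between Day 10 and Day 7, limma called 168 genes, of which 119 were higher on Day 10 (1.05% of the genes tested) and 49 were lower (0.43%). At an unadjusted p under 0.05 there were 886 higher and 1146 lower genes among the 11384 tested. The split between the directions thus depended on the threshold. Counts of list genes at this threshold, given below, are to be read beside these counts over all genes. For none of the 168 called genes did the arrays of the days overlap. Over all genes tested, both Day 10 arrays lay above both Day 7 arrays for 22.8% of the genes and below them for 27.9%. Most genes moved little: 72.2% changed by less than 0.5 (log2), and the middle 90% lay between -0.83 and 0.75.

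The number of calls depended on single arrays. Without Day 10 replicate 1 there were 132 higher and 45 lower genes, and without Day 10 replicate 2 there were 115 higher and 212 lower genes. Without Day 7 replicate 1 only 10 genes were called, all higher, and without Day 7 replicate 2 only 9 were, again all higher. In these fits the remaining array of a day was assumed to vary like the other days. The 168 genes kept their direction and a change of at least 2-fold in whichever of these 4 fits they were tested. Among the genes named by the rule, Gfap, Chchd10, P2rx3, Slc7a11, Apoe, Slc7a3, Acot2 and Slc6a9 were called whichever Day 10 or Day 7 array was left out. Every other called gene named by the rule lost its call without at least 1 of the Day 7 arrays. Without centring the counts were 41 higher and 38 lower.

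**Figure D2:**
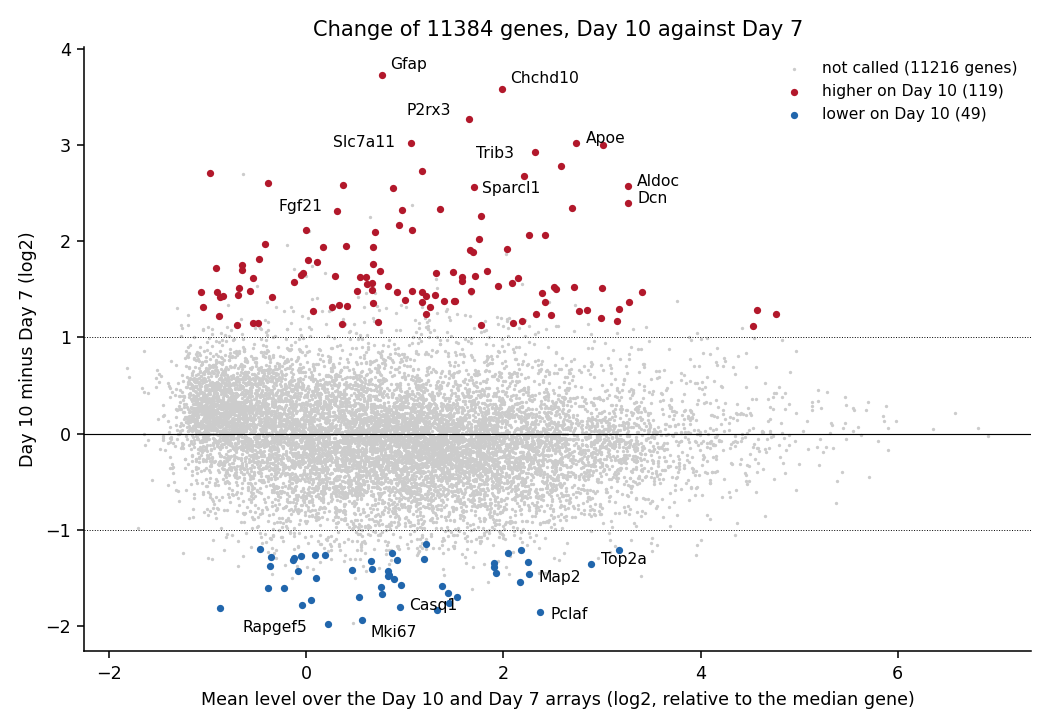
Change of each of the 11384 tested genes (Day 10 minus Day 7, log2) against its mean level over the Day 10 and Day 7 arrays (log2, relative to the median gene), with the 119 higher genes in red, the 49 lower genes in blue and dotted lines at a fold of 2. The largest rise was that of Gfap, 13.2-fold, and the largest fall that of Rapgef5, 3.93-fold.

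Genes of astrocytes and radial glia included the largest rise of all, that of Gfap. Of 25 tested members of this list, 5 rose (Gfap, Apoe, Aldoc, Sparcl1 and Acsbg1) and 0 fell, with a median change of 0.56 beside -0.03 over all genes tested. Both Day 10 arrays lay above both Day 7 arrays for 17 of the 25, against 22.8% of all genes, and 12 were higher and 1 lower at a p under 0.05 before adjustment. Gfap, which encodes the intermediate filament protein of mature astrocytes, had levels of 2.35 and 2.92 on the Day 10 arrays, against -1.47 and -0.71 on the Day 7 arrays. Both Day 10 arrays lay more than 3 above both Day 7 arrays, and all 12 probesets of the gene moved this way. It rose 13.2-fold (3.73 log2, SE 0.31, adjusted p = 0.00093 by limma), and on Day 0 it had been at -1.61 and -1.43.

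Apoe, the lipid carrier protein that astrocytes secrete, had levels of 4.17 and 4.32 on Day 10, against 1.31 and 1.14 on Day 7. The rise was 8.10-fold (3.02 log2, SE 0.24, adjusted p = 0.00078 by limma), and the arrays of each day stood close together. On Day 0 its levels had been 5.11 and 4.97, so that Day 7 was the lowest of the 3 days for this gene. Aldoc, the aldolase of astrocytes and of some neurons, was at 4.67 and 4.41 on Day 10 and at 2.29 and 1.66 on Day 7 (5.93-fold, adjusted p = 0.01 by limma). Sparcl1, a secreted protein that promotes synapse formation, was at 3.26 and 2.70 on Day 10 and at 0.74 and 0.11 on Day 7 (5.89-fold, adjusted p = 0.011 by limma). On Day 0 it had been lower still, at -2.08 and -1.23. Acsbg1, an acyl-CoA synthetase of astrocytes, rose 2.22-fold (adjusted p = 0.045 by limma) and lost its call without Day 10 replicate 1.

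Several uncalled members were higher on both Day 10 arrays, among them Ndrg2, Mlc1, Nfix and Sox9, with changes of 1.14, 0.95, 0.89 and 0.80 (adjusted p = 0.063, 0.11, 0.14 and 0.18 by limma). Others differed little between the days. Vim, the intermediate filament of radial glia, was at 5.70 and 5.55 on Day 10 and at 5.72 and 5.55 on Day 7, and the arrays of both days overlapped. Tnc, a matrix protein of radial glia, changed by -0.02 (adjusted p = 0.98 by limma), at 3.75 and 4.22 on Day 10 and 3.83 and 4.18 on Day 7. On Day 0 it had been at -1.74 and -1.78. Nfia and Nfib, transcription factors that start the formation of astrocytes, changed by 0.31 and 0.17 (adjusted p = 0.61 and 0.80 by limma), and Fabp7, a lipid-binding protein of radial glia, by -0.05 (adjusted p = 0.96).

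The labels were therefore met by some glial markers and not by others. Glul, the glutamine synthetase of astrocytes, was at 2.06 and 2.07 on Day 10 and at 3.01 and 2.87 on Day 7, the opposite direction to Gfap, and did not pass the test (-0.87, adjusted p = 0.095 by limma). Aldh1l1 had levels of 1.34 and 2.90 on Day 10 and 0.12 and 0.90 on Day 7, with a wide gap between the Day 10 arrays (1.61, adjusted p = 0.11). S100b, Aqp4 and Gjb6, markers of mature astrocytes, lay under the filter on low levels and were not tested. Of 19 genes of the oligodendrocyte lineage, 9 lay under this filter, and of the other 10, 0 were called by limma, while 1 was higher and 1 lower at a p under 0.05 before adjustment. Olig2, the transcription factor of this lineage, was at 0.32 and -0.67 on Day 10 and at -0.50 and -0.34 on Day 7, and Mbp, the myelin protein, was at -0.28 and -1.62 on Day 10 and at -1.61 and -1.51 on Day 7. In both genes the Day 10 arrays differed from each other by more than the days did. The count of 5 astrocyte genes became 6 without Day 10 replicate 1 and 5 without replicate 2, and 2 without either Day 7 array.

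**Figure D3:**
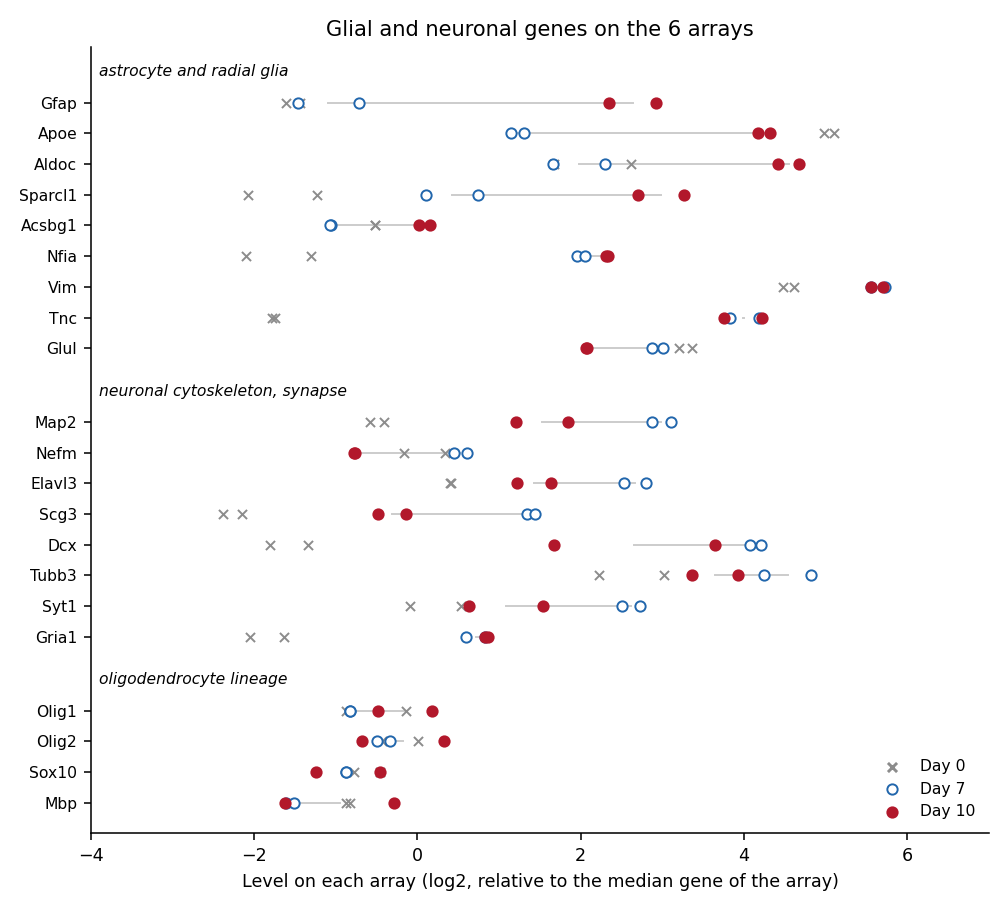
Level on each array (log2, relative to the median gene of the array) of 21 glial and neuronal genes, with crosses for Day 0, open circles for Day 7 and filled circles for Day 10, 2 arrays each, and a grey line between the means of Day 7 and Day 10. Gfap, Apoe, Aldoc and Sparcl1 lay to the right on Day 10, the neuronal genes from Map2 to Syt1 lay to the left, and Vim, Tnc and Gria1 stayed close to their Day 7 levels.

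Several neuronal genes were lower on Day 10. In the list of the neuronal cytoskeleton and axon, 3 of 31 genes fell and 0 rose, with a median change of -0.86. For 23 of the 31 both Day 10 arrays lay below both Day 7 arrays, against 27.9% of all genes. Map2, the microtubule protein of dendrites, had levels of 1.84 and 1.21 on Day 10, against 2.87 and 3.10 on Day 7. It was 2.76-fold lower (-1.46 log2, SE 0.28, adjusted p = 0.037 by limma). Nefm, the middle subunit of neurofilaments, was at -0.78 and -0.76 on Day 10 and at 0.45 and 0.61 on Day 7 (2.45-fold lower, adjusted p = 0.043). The call of Nefm was lost without either Day 10 array. Elavl3, an RNA-binding protein of neurons, was at 1.63 and 1.21 on Day 10 and at 2.53 and 2.80 on Day 7 (2.37-fold lower, adjusted p = 0.048). On both Day 10 arrays Map2 and Elavl3 remained above their Day 0 levels, which were under 0.5. Nefm lay below its Day 0 levels, which were -0.17 and 0.33.

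The size of the neuronal decrease differed between the Day 10 arrays. Dcx, the microtubule protein of migrating young neurons, had levels of 3.65 and 1.67 on Day 10, against 4.2 and 4.07 on Day 7. Both Day 10 arrays were lower, but by very different amounts, and the gene did not pass the test (-1.48, adjusted p = 0.17 by limma). Against the mean of Day 7, the median change of the list was -0.61 on Day 10 replicate 1 and -1.02 on replicate 2. The 3 calls became 5 without Day 10 replicate 1 and 0 without replicate 2. With each array centred on its 75th percentile, 0 of these genes were called and the median change was -0.75.

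At the synapse, 1 of 33 tested genes fell. Scg3, a protein of dense-core vesicles, was at -0.15 and -0.48 on Day 10 and at 1.34 and 1.44 on Day 7, and its 13 probesets were all lower (3.25-fold, SE 0.25 log2, adjusted p = 0.012 by limma). Syt1, the calcium sensor of synaptic vesicles, was at 1.53 and 0.63 on Day 10 and at 2.51 and 2.72 on Day 7 (-1.54, adjusted p = 0.056 by limma). The list had a median of -0.39, which became -0.61 without Day 10 replicate 1 and -0.07 without replicate 2. Gria1, a subunit of AMPA receptors, was at 0.83 and 0.86 on Day 10, against 0.60 and 0.83 on Day 7 (0.13, adjusted p = 0.83). Serpini1, the neuronal protease inhibitor neuroserpin, was not in the synapse list. It was at -0.77 and -1.28 on Day 10 and at 0.27 and 0.89 on Day 7 (3.04-fold lower, adjusted p = 0.033 by limma). Its call was lost without Day 10 replicate 2. Of 24 neurogenic transcription factors, limma called 0. At a p under 0.05 before adjustment 0 were higher and 4 lower, beside 886 and 1146 of all 11384 tested genes.

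The group with the most rising members was that of the amino acid stress response. ATF4 is a transcription factor whose protein is made when cells lack amino acids or have stress in the endoplasmic reticulum, and its targets import amino acids, charge tRNAs and limit protein synthesis. Of 33 tested genes of this list, 13 rose and 0 fell. Both Day 10 arrays lay above both Day 7 arrays for 32 of them, against 22.8% of all genes. The median level of the list was 3.02 and 2.61 on Day 0, 1.70 and 1.77 on Day 7, and 2.95 and 2.78 on Day 10. Day 7 was thus the lowest of the 3 days for the list. Members differed, since Slc7a11 and Fgf21 lay above Day 0 on both Day 10 arrays, while Slc7a3 and Stc2 lay below it. The median change from Day 7 was 1.06. It was 1.11 on Day 10 replicate 1 and 1.08 on replicate 2, so that the duplicates gave about the same value. The count was 9 without Day 10 replicate 1, 12 without replicate 2, 2 without either Day 7 array and 7 without centring.

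Among the transporters, Slc7a11, the exchanger that brings cystine into the cell for glutathione, had levels of 2.86 and 2.30 on Day 10, against -0.36 and -0.54 on Day 7. It rose 8.13-fold (3.02 log2, SE 0.27, adjusted p = 0.00093 by limma), over all 13 probesets, and its Day 10 arrays also lay above the Day 0 arrays, which were at 0.86 and 0.59. Slc7a3, a carrier of cationic amino acids, was at 3.99 and 3.95 on Day 10 and at 1.00 and 1.39 on Day 7 (6.87-fold, adjusted p = 0.00093), while on Day 0 it had been at 4.47 and 4.28. Slc7a1, a related carrier, and Slc3a2, the heavy chain that partners Slc7a11, rose 2.77-fold and 2.44-fold (adjusted p = 0.038 and 0.046).

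Of the regulators, Trib3, a pseudokinase induced by ATF4 and CHOP, was at 3.79 and 3.77 on Day 10 and at 0.96 and 0.75 on Day 7, a rise of 7.59-fold (SE 0.38 log2, adjusted p = 0.0082 by limma). Ddit3, which encodes CHOP, was at 1.72 and 1.39 on Day 10 and at -0.35 and -0.06 on Day 7 (3.38-fold, adjusted p = 0.012). Atf5, a relative of ATF4, rose 4.35-fold (adjusted p = 0.012), and Atf3 rose 2.72-fold (adjusted p = 0.043). Nupr1, a small nuclear stress protein, was at 3.16 and 2.11 on Day 10 and at 0.96 and 0.54 on Day 7 (3.69-fold, adjusted p = 0.046), and its call was lost without Day 10 replicate 1. The RNA of Atf4 itself was at 3.61 and 3.45 on Day 10 and at 3.10 and 3.11 on Day 7, higher on both arrays but not called (0.42, adjusted p = 0.39 by limma).

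Fgf21, a secreted hormone of nutrient stress, was one of the genes that were low on both earlier days. Its levels were 1.40 and 1.55 on Day 10, against -0.92 and -0.77 on Day 7, and -1.03 and -0.76 on Day 0. It rose 4.98-fold over Day 7 (2.31 log2, SE 0.24, adjusted p = 0.0028 by limma). Stc2, Sesn2 and Sars, which encode a secreted glycoprotein, a stress sensor that restrains mTORC1 and the seryl-tRNA synthetase, rose 2.79-fold, 3.19-fold and 2.17-fold (adjusted p = 0.021, 0.022 and 0.049 by limma). Asns, the asparagine synthetase, was at 4.99 and 4.95 on Day 10 and at 3.91 and 3.84 on Day 7, without overlap, and narrowly missed the call (1.10, adjusted p = 0.053 by limma).

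ATF4 binds with C/EBP proteins to the C/EBP-ATF response element, which was searched as TGATGCA on both strands of the RefSeq promoters of GRCm38.p6, from 250 bases before to 50 bases after the start of each gene. The letters were found in 9 of 30 promoters of the ATF4 list, 30%, against 3.63% of 27025 promoters of all genes and 2.45% of those of the tested genes. Among the genes that rose, 12 of 98 promoters held them, 12.2%, and among those that fell, 1 of 36, 2.78%. Many genes of this list are known as ATF4 targets partly through such elements, so the share of the list was not independent of how it was made. The 30 bases around the match are given for 3 of the genes that rose, 5′ to 3′ along the gene with the match in capitals, because they show its place and its strand. In Slc7a11 the letters stood in both orientations, 66 and 46 bases before the start.
Slc7a11, chr3:50443652-50443681, minus strand: gcTGATGCAaacctggagaattTGCATCAt
Fgf21, chr7:45615611-45615640, minus strand: agacccccccatTGCATCAtccgtccaggc
Nupr1, chr7:126625562-126625591, minus strand: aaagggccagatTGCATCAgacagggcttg
A match is only a description of the letters, and binding was not measured.

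A few genes of the endoplasmic reticulum, of hypoxia and of lysosomes rose as well. Of 18 tested genes of the unfolded protein response, 2 rose, with a median change of 0.37. These were Herpud1, of the degradation of misfolded proteins, at 3.30 and 2.92 on Day 10 and 1.77 and 1.70 on Day 7 (2.59-fold, adjusted p = 0.038 by limma), and Sel1l, of the same pathway (2.30-fold, adjusted p = 0.049). Both calls were lost without Day 10 replicate 1. Of 27 genes of glycolysis and the hypoxia response 3 rose and 0 fell, with a median change of 0.57. Vegfa, the growth factor of blood vessels, was at 3.32 and 3.25 on Day 10 and at 1.95 and 1.62 on Day 7 (2.83-fold, SE 0.24 log2, adjusted p = 0.02 by limma). Ndrg1, a gene induced in hypoxia, and Ero1a, an oxidase of the endoplasmic reticulum, rose 3.23-fold and 3.07-fold (adjusted p = 0.029 and 0.026), and both lost the call without Day 10 replicate 1. The count for the list was then 2, Vegfa and a member not called otherwise, and it was 3 without replicate 2. Glycolytic enzymes were not all alike: Aldoa, aldolase A, was at 5.24 and 5.38 on Day 10 and at 4.36 and 4.33 on Day 7 (0.97, adjusted p = 0.091 by limma), and Gapdh was at 5.45 and 5.51 on Day 10 and at 5.57 and 5.27 on Day 7 (0.06, adjusted p = 0.93).

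Lysosomal genes rose in 3 of 20 cases, with a median change of 0.85. For 18 of the 20 both Day 10 arrays lay above both Day 7 arrays, against 22.8% of all genes. Tpp1, a lysosomal peptidase, was at 3.08 and 3.47 on Day 10 and at 1.78 and 1.72 on Day 7 (2.88-fold, adjusted p = 0.033 by limma). Grn, the precursor of granulins, was at 3.52 and 3.98 on Day 10 and at 2.24 and 2.24 on Day 7 (2.85-fold, adjusted p = 0.029). Ctsa, a protective protein of lysosomal enzymes, rose 2.26-fold (adjusted p = 0.049), a call that was lost without either Day 10 array. On Day 0 each of these 3 genes had been higher than on Day 10 or about as high, with levels between 3.52 and 4.39. The 3 calls became 1 without Day 10 replicate 2, and 0 without centring, where the median of all genes was -0.25.

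Genes of cell division were lower on Day 10. For all 36 tested genes of mitosis and cytokinesis both Day 10 arrays lay below both Day 7 arrays, against 27.9% of all genes, with a median change of -1.04, but only 2 passed the test. Mki67, the marker of dividing cells, had levels of -0.69 and -0.10 on Day 10, against 1.56 and 1.51 on Day 7. It was 3.82-fold lower (-1.93 log2, SE 0.33, adjusted p = 0.026 by limma). Top2a, the topoisomerase of mitotic chromosomes, was at 2.11 and 2.32 on Day 10 and at 3.71 and 3.42 on Day 7 (2.56-fold lower, adjusted p = 0.035), with 36 of its 37 probesets lower. Cdk1, the kinase that starts mitosis, was at 0.78 and 1.67 on Day 10 and at 2.58 and 2.0 on Day 7 (-1.07, adjusted p = 0.15). The decrease was larger on Day 10 replicate 1, where the median of the list was -1.31 relative to Day 7, than on replicate 2, where it was -0.74, and 33 of the 36 genes were lower on replicate 1. The count of 2 became 0 without Day 10 replicate 1 and 19 without replicate 2.

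Genes of DNA replication were also lower. Of 35 genes 5 fell and 0 rose, with a median change of -0.84. For 33 both Day 10 arrays lay below both Day 7 arrays, against 27.9% of all genes. Cdc6, which loads the replicative helicase, was at 0.28 and 0.86 on Day 10 and at 2.47 and 2.19 on Day 7 (3.38-fold lower, SE 0.31 log2, adjusted p = 0.031 by limma). Ccne2, a cyclin of entry into S phase, was at -0.98 and -0.87 on Day 10 and at 1.01 and 0.69 on Day 7 (3.43-fold lower, adjusted p = 0.043). Tk1, the thymidine kinase of dividing cells, was at 0.52 and 0.84 on Day 10 and at 2.32 and 2.43 on Day 7 (3.23-fold lower, adjusted p = 0.014). The nucleotide enzymes Tyms and Rrm1 were 2.46-fold and 2.31-fold lower (adjusted p = 0.036 and 0.049). E2f1, the transcription factor of S phase genes, was at 1.12 and 1.12 on Day 10 and at 1.14 and 1.09 on Day 7, within the range of the duplicates. Without Day 10 replicate 1 the count was 1, and without replicate 2 it was 11. Of the other large decreases, Pclaf, a partner of the replication clamp, was 3.60-fold lower, Pbk, a mitotic kinase, 3.55-fold lower, and Melk, a kinase of dividing cells, 3.18-fold lower (adjusted p = 0.012, 0.049 and 0.027 by limma), and Pbk and Melk lost the call without Day 10 replicate 1. Of 23 inhibitors of the cell cycle and targets of p53, 0 were called, while 5 were higher and 5 lower at a p under 0.05 before adjustment.

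Mitotic promoters are known for the CHR element, which was searched as TTTGAA on both strands. It was found in 23 of 30 promoters of the mitosis list, 76.7%, and in 4 of 28 of the DNA replication list, 14.3%, against 20.2% of all promoters and 14.4% of those of the tested genes. The CCAAT box, searched as CCAAT on both strands, was found in 22 of 30 promoters of the mitosis list, 73.3%, against 41.1% of all. Since mitotic promoters are known for the CHR element, its high share describes the list itself and not the change between the days. Among the genes that fell, 9 of 36 promoters held the CHR letters, 25%, and among those that rose, 22 of 98, 22.4%. Both shares were close to each other and to the 20.2% of all promoters. They were above the 14.4% of the tested genes, and these differences were not tested. The 30 bases with the match in capitals are given for both genes of the mitosis list that passed the test. The letters stood 116 and 98 bases before the start of Mki67, and 23 bases before that of Top2a, where they run on the other strand.
Mki67, chr7:135716468-135716497, minus strand: aaTTTGAAccgccgttttggTTTGAAtcgg
Top2a, chr11:99024195-99024224, minus strand: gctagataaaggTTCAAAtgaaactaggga
A second match of Top2a lay 179 bases before its start and is not shown.

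**Figure D4:**
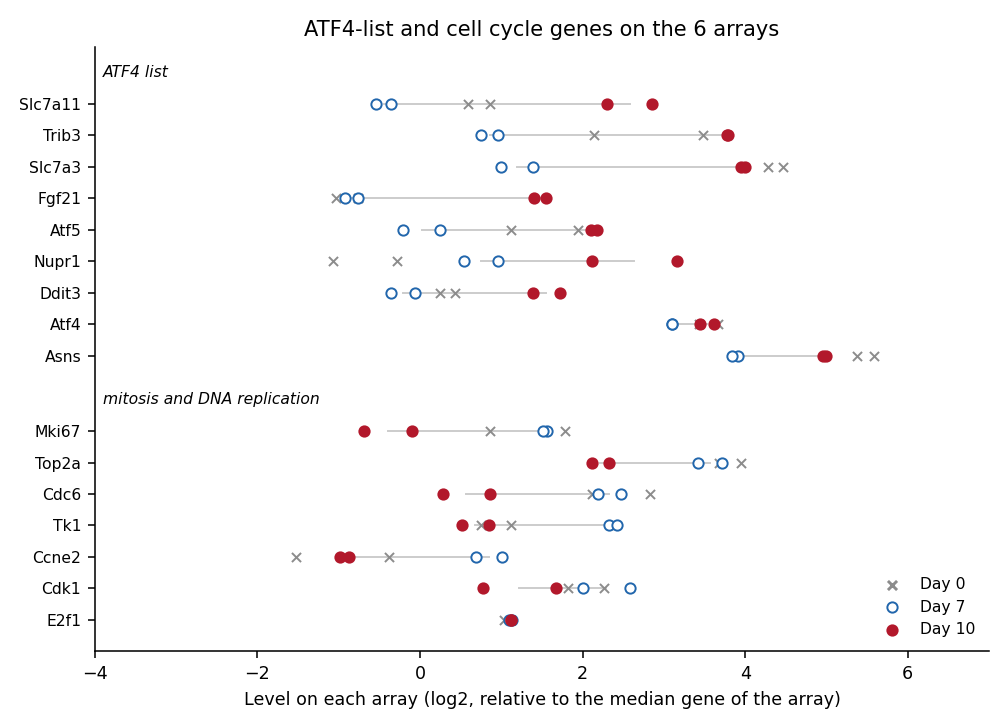
Level on each array (log2, relative to the median gene of the array) of 9 genes of the ATF4 list and 7 genes of cell division, with crosses for Day 0, open circles for Day 7 and filled circles for Day 10, 2 arrays each, and a grey line between the means of Day 7 and Day 10. The ATF4-list genes lay to the right on Day 10 and the genes of cell division to the left, apart from E2f1.

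Some genes of undifferentiated cells were higher on Day 10, chiefly on replicate 2. Of 13 tested genes of the pluripotency and embryonal carcinoma list 1 rose, Tdgf1, the co-receptor of Nodal. Its levels were 1.45 and 2.86 on Day 10, against -0.49 and -0.30 on Day 7 (5.86-fold, SE 0.39 log2, adjusted p = 0.015 by limma). Pou5f1, the transcription factor of pluripotent cells, was at 1.19 and 3.61 on Day 10 and at 0.13 and 1.75 on Day 7, where the arrays of both days overlapped (1.46, adjusted p = 0.30). On Day 0 it had been at 4.80 and 5.12. Utf1, another such factor, was at -0.70 and 2.12 on Day 10 and at -2.33 and -1.64 on Day 7, with the higher value on replicate 2 (2.69, adjusted p = 0.081). Nanog was at 0.22 and 2.38 on Day 10 and at 0.27 and 1.63 on Day 7, and Gdf3 at -0.60 and 2.23 on Day 10 and at -1.12 and -0.07 on Day 7. Over the list the median change was 1.26. It was 1.68 with 5 calls when Day 10 replicate 1 was left out, and 0.25 with 1 call when replicate 2 was. Lama1, a chain of laminin in the list of endoderm genes, was at 2.57 and 2.49 on Day 10 and at 0.76 and 1.03 on Day 7 (3.11-fold, adjusted p = 0.012 by limma), with like values on both Day 10 arrays.

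Genes of mesenchyme and extracellular matrix had a median change of -0.04 over 32 genes, and 3 of them rose. At a limma p under 0.05 before adjustment 8 were higher and 3 lower, beside 886 and 1146 of all 11384 tested genes. Dcn, the proteoglycan decorin, was at 4.35 and 4.58 on Day 10 and at 1.80 and 2.34 on Day 7 (5.27-fold, SE 0.31 log2, adjusted p = 0.0082 by limma). Lum, the related proteoglycan lumican, and Col6a3, a chain of collagen VI, rose 3.43-fold and 2.52-fold (adjusted p = 0.037 and 0.042), and both lost the call without Day 10 replicate 2. Prelp, a proteoglycan of the same family as decorin and lumican, was at 1.91 and 1.42 on Day 10 and at -0.97 and -0.87 on Day 7 (6.01-fold, adjusted p = 0.021). Contractile genes of smooth muscle were lower on both Day 10 arrays in 15 of 17 cases, against 27.9% of all genes. Their median change was -0.72, which was -0.57 without Day 10 replicate 1 and -0.78 without replicate 2. For these limma called 0, while 0 were higher and 11 lower at a p under 0.05 before adjustment. Acta2, smooth muscle actin, was at 4.97 and 5.06 on Day 10 and at 5.80 and 5.67 on Day 7 (-0.72, adjusted p = 0.16).

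The other cell types that such cultures could hold gave few tested genes. Of 16 genes of endothelium 10 lay under the filter, of 14 genes of blood and microglia 8 did, and of 20 genes of cardiac muscle 10 did. In these 3 lists limma called 0 genes. At an unadjusted p under 0.05, endothelium had 1 higher and 1 lower gene, blood and microglia had 0 and 0, and cardiac muscle had 2 higher and 0 lower. The interferon list had 2 genes that rose of 14, Ifitm3, an antiviral membrane protein, at 1.5 and 1.27 on Day 10 and -0.83 and -0.31 on Day 7 (3.88-fold, adjusted p = 0.01 by limma), and B2m, the light chain of MHC class I (2.45-fold, adjusted p = 0.038), whose call was lost without Day 10 replicate 1.

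Among genes of the RA response, 1 of 22 was called. Rarb, a receptor of RA that RA itself induces, was at 0.31 and 0.22 on Day 10 and at 1.71 and 1.44 on Day 7 (2.48-fold lower, adjusted p = 0.043 by limma), and it lost the call without either Day 10 array. Of 28 Hox genes, 0 were called, with a median change of -0.26. Before adjustment 1 was higher and 6 were lower at a p under 0.05, beside 886 and 1146 of all 11384 tested genes. Of 23 genes of neural progenitors and Notch signalling 1 fell, Fabp5, a fatty acid-binding protein, at 1.19 and 1.27 on Day 10 and 2.70 and 2.45 on Day 7 (2.53-fold lower, adjusted p = 0.047), also lost without either Day 10 array. Over the 23 progenitor and Notch genes the median change was 0.25. Both Day 10 arrays lay above both Day 7 arrays for 11 of them and below for 6, against 22.8% and 27.9% of all genes. Before adjustment 3 were higher and 2 lower at a limma p under 0.05. In 34 regulators of splicing limma called 0, while the median change was -0.39. For 19 of them both Day 10 arrays lay below both Day 7 arrays, against 27.9% of all genes. At a p under 0.05 before adjustment, 2 were higher and 11 lower. Actb, a common reference gene, was not called.

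**Figure D5:**
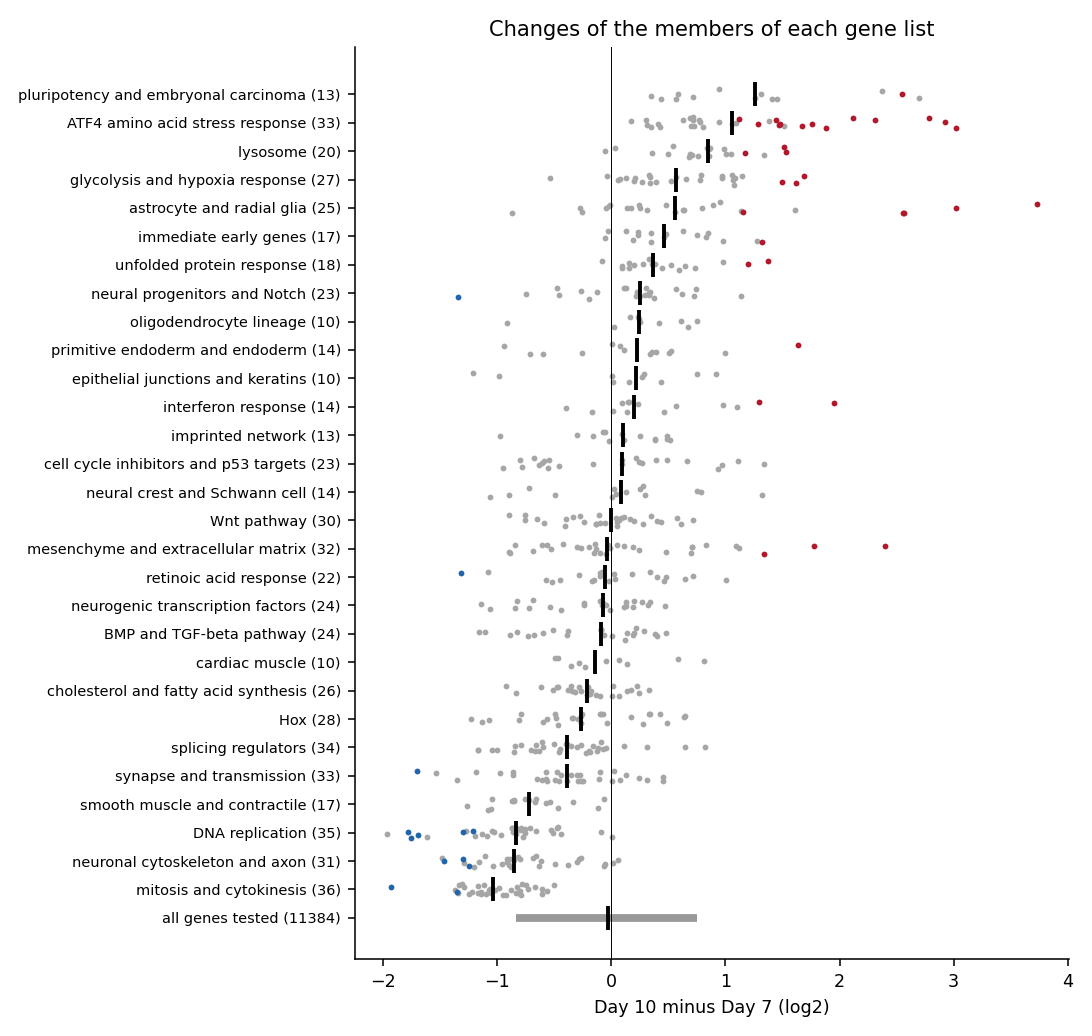
Change of each tested member (Day 10 minus Day 7, log2) of the gene lists with at least 10 tested members, sorted by their median, with genes called higher in red, genes called lower in blue, the others in grey, black ticks at the medians and the number of tested members in parentheses. The bottom row shows the median and the middle 90% of all 11384 genes, from -0.83 to 0.75, and the mitosis list had the lowest median, -1.04.

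Several of the largest changes belonged to no list. Chchd10, a protein of mitochondria, was at 3.67 and 3.89 on Day 10 and at -0.36 and 0.74 on Day 7 (12-fold, SE 0.38 log2, adjusted p = 0.0028 by limma). On Day 0 it had been at 4.23 and 3.45, so that the low value belonged to Day 7. P2rx3, an ion channel of sensory neurons that is opened by ATP, showed another order. It was at 3.38 and 3.19 on Day 10 and at 0.08 and -0.05 on Day 7 (9.66-fold, SE 0.24 log2, adjusted p = 0.00078), and on Day 0 at -1.17 and -1.46. Slc6a9, the glycine transporter of glia and of some neurons, was at 3.54 and 3.55 on Day 10 and at 0.75 and 0.99 on Day 7 (6.4-fold, adjusted p = 0.00093), with all 19 probesets higher. Its Day 0 levels, 2.34 and 2.51, lay between those of the other days.

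Adhfe1, a mitochondrial dehydrogenase, was at 0.60 and 1.24 on Day 10 and at -1.66 and -1.71 on Day 7 (6.09-fold, adjusted p = 0.0028 by limma). B4galnt2, a transferase of glycan synthesis, was at 0.34 and 0.42 on Day 10 and at -1.80 and -2.87 on Day 7 (6.55-fold, adjusted p = 0.012). The largest fall was that of Rapgef5, an exchange factor for Rap GTPases, at -0.74 and -0.79 on Day 10 and at 1.39 and 1.03 on Day 7 (3.93-fold lower, SE 0.25 log2, adjusted p = 0.0082 by limma). All 15 of its probesets were lower, and on Day 0 it had been at 1.53 and 1.87. Igfbp7, a secreted binding protein of insulin-like growth factors, was 3.31-fold lower (adjusted p = 0.022), and Casq1, a calcium store protein of skeletal muscle, 3.47-fold lower (adjusted p = 0.026). Casq1 was at -0.28 and 0.38 on Day 10, against 2.05 and 1.64 on Day 7, and at -1.18 and -1.71 on Day 0, so that it was highest on Day 7. Lrch2 and Pdss1, an enzyme of ubiquinone synthesis, were 3.14-fold and 3.04-fold lower (adjusted p = 0.046 and 0.015). H2bc1, a histone gene, was 3.5-fold lower (adjusted p = 0.026), but it was the 1 called gene with a single probeset, and histone genes are close copies of each other. Casq1, Lrch2 and H2bc1 lost the call without Day 10 replicate 1.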

How the data were processed

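The authors deposited an intensity for each exon (228090 core probesets, not logged). In the study's methods PLIER after sketch normalization is given, and in the submitters' processing notes RMA with Affymetrix Expression Console, no version being stated. Each column was assigned to its day and replicate by the labels (0 remained unassigned). Probesets with 1 gene symbol were used (208093; 4327 had several and 15670 none), with 2131 of 16285 symbols updated through the RefSeq gene table of GRCm38.p6, which served only for names. Genes below the 30th percentile of mean level over the 6 arrays were left out, and the rest were tested by limma 3.58.1 in R 4.3.3, which was tested on simulated data first. The number of arrays limits the precision. The labels say only that the duplicates are biological, so p-values measure the spread between these arrays.

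The comparison and the gene lists were chosen with earlier results of these data known. The rule for naming genes took the 15 that rose most and the 15 that fell most among calls without overlap. It also took up to 6 called members of a list, and the 2 members with the highest level of a list with fewer than 2 calls. The glial and neuronal lists, Gria1 and Actb were taken too. The text leaves out some genes that the rule took. Among these was Klf4 of the immediate early list, 2.5-fold higher on Day 10 (adjusted p = 0.049 by limma). The lists of the BMP and TGF-beta pathway, the Wnt pathway and cholesterol synthesis are not described. Other genes of lists, such as Cdk1, Asns or Nanog, were chosen after their values were seen. List genes without a matched symbol were not analysed here. Alternatives covered the offset, centring, gene summary, filter, arrays, block, weights and thresholds. Motifs were searched in the RefSeq promoter table, which does not hold every gene.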

Additional observations from a re-analysis of the deposited data

How the results depend on the processing

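The 168 called genes kept their direction wherever they were tested in the 4 fits without a Day 10 or Day 7 array. Among called genes named by the rule, no reversal was recorded under any alternative. For the other called genes, direction was compared only in those 4 fits. Against 119 higher and 49 lower genes, an offset of 1 gave 67 and 13, an offset of 50 gave 163 and 112, no centring 41 and 38, centring on the 75th percentile 149 and 31, quantile normalization 151 and 68, the mean of probesets 179 and 176, median polish 196 and 162, no filter 55 and 8, the 50th percentile filter 157 and 106, at least 4 probesets 198 and 115, only the 4 arrays of both days 117 and 46, trend and robust fits 183 and 121, array weights 184 and 125, and an adjusted p under 0.1 gave 224 and 189. A minimum of 1.5-fold or none gave the same counts as 2-fold. Calls that were higher made up 70.8% of all calls, 51.9% without centring, 82.8% with the 75th percentile and 68.9% with quantile normalization, where the median change of all genes was -0.25, 0.07 and -0.03, beside -0.03 with the centring used. Leaving out 1 array gave 9 to 132 higher and 0 to 212 lower genes. With the replicate number as a block there were 184 higher and 110 lower genes, which include all 168. Across genes, the replicate differences had a correlation of -0.03 between Day 10 and Day 7, 0.33 between Day 10 and Day 0 and -0.08 between Day 7 and Day 0, so that the numbers were not taken to pair the arrays. Between duplicates, genes more than 2-fold apart on Day 10 numbered 1362 without centring and 321 with an offset of 50, and on Day 7 they numbered 53 with an offset of 50. The causes of these differences were not tested. For genes named by the rule, 238 values lost a call and 52 gained one over the alternatives, of 4254.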

Other observations

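Further groups were put together after the values had been seen, so that they carry no test of their own and their counts describe only these arrays. Among 16 tested genes of the circadian clock and its output, 4 were higher on Day 10, with a median change of 0.65. Nr1d1, a repressor of the clock, was at 1.17 and 1.06 on Day 10 and at -0.48 and -0.58 on Day 7 (3.12-fold, adjusted p = 0.012 by limma). Dbp, an output transcription factor of the clock, was at 1.03 and 1.13 on Day 10 and at -0.08 and -0.42 on Day 7 (2.51-fold, adjusted p = 0.033). Nr1d2 and Bhlhe41, both repressors, were 2.58-fold and 3.83-fold higher (adjusted p = 0.043 and 0.015). On Day 0 all 4 of these genes had levels above those of Day 7. Of 12 genes around folliculin, which acts on Rag GTPases and the lysosome, 4 were higher, with a median change of 0.52. These were Flcn, its partner Fnip1, Rragd and the autophagy receptor Sqstm1, at 2.36-fold, 2.21-fold, 2.42-fold and 2.37-fold (adjusted p = 0.038, 0.049, 0.049 and 0.042 by limma).

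Of 16 genes of metal binding and oxidative stress 4 were higher, with a median change of 0.55. Mt1 and Mt2, the metallothioneins, bind zinc and copper. Mt1 was at 4.11 and 4.91 on Day 10 and at 1.72 and 1.29 on Day 7 (8-fold, adjusted p = 0.0036 by limma), and Mt2 at 3.49 and 4.26 on Day 10 and at 1.72 and 1.33 on Day 7 (5.09-fold, adjusted p = 0.011). Hmox1, which degrades haem, was at 2.97 and 2.85 on Day 10 and at 0.41 and 0.87 on Day 7 (4.81-fold, adjusted p = 0.0036). Of 14 genes of lipid export and fatty acid use 5 were higher, with a median change of 0.71. Besides Apoe these were Abca1, which loads cholesterol onto apolipoproteins, at 2.72 and 2.33 on Day 10 and at 0.07 and 0.29 on Day 7 (5.06-fold, adjusted p = 0.007 by limma), Acot2, a mitochondrial thioesterase (6.61-fold, adjusted p = 0.0014), and the fatty acid proteins Slc27a1 and Fabp3 (3.74-fold and 2.97-fold, adjusted p = 0.011 and 0.037).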
